A study of Mus musculus with 12 samples.

Results

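The MCM helicase and replication licensing genes are described here in mouse liver by 10 genes: Mcm2, Mcm3, Mcm4, Mcm5, Mcm6, Mcm7, Mcm10, Cdc6, Cdt1 and Cdc45. They were taken by name, as the probes whose RefSeq accession belongs to one of these symbols. The rule used no measured value, but the names were chosen with earlier results of these data known. All 10 were on the array, read by 11 probes, and they stand among 25270 genes or unnamed accessions that were fitted. Whole liver came from C57BL/6 mice whose Myc alleles carry loxP sites (MycF/F) or that also carry the ERT2-Cre transgene (MycF/F,ERT2-Cre), fed for 2 days either a control diet or one that held 0.1% Wy-14643. ERT2-Cre is a recombinase held outside the nucleus until a ligand such as tamoxifen is given, and Wy-14643 activates PPARA, the nuclear receptor that turns on fatty acid oxidation in liver. MycF/F livers were read on 1 control array, whose label calls it pooled liver, and on 3 Wy-14643 arrays. MycF/F,ERT2-Cre livers were read on 4 control arrays and 4 Wy-14643 arrays. The sources used here name no promoter for the transgene, no tamoxifen dose and no sex, age or identity of the animals, so the p-values rest on differences between samples that may be only technical. Each value is a log2 ratio of the sample (Cy5) to a pooled liver reference (Cy3), so 1 unit is a doubling. Because RNA of whole liver was read, a change in the number of cells that hold a transcript and a change in the amount per cell cannot be told apart.

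DNA replication is licensed before S phase, when the origin recognition complex with Cdc6 and Cdt1 loads the ring of Mcm2 to Mcm7 onto DNA as an inactive double hexamer. Cdc45 and the GINS complex then join the ring to form the running helicase, and Mcm10 helps that step. Most hepatocytes of an adult liver rest outside the cell cycle and hold few of these transcripts, which E2F factors switch on when cells move towards S phase.

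Promoter sequence is shown for the members that have the letters of an E2F site near the start, and for Mcm10, whose values go apart from the rest. A RefSeq promoter table (GRCm38.p6, from 250 bases before to 50 after each start) held 9 of the 10 members; Mcm4 has no entry. Positions are counted from the transcription start, with 1 as its first base. Both strands were searched for TTTCCCGC, TTTGGCGC, TTTCGCGC and TTTGCCGC, 4 exact forms of the E2F site, which can overlap each other. At least 1 of these forms was found in 6 of the 9 members, against 2.6% of the 27025 genes with a window. By window the share was 2.26% of all 32851. These members were Mcm3, Mcm5, Mcm6, Mcm7, Cdc6 and Cdt1, while the windows of Mcm2, Mcm10 and Cdc45 hold none. Capitals mark the E2F forms. The stretches of Mcm5 (chr8:75109329-75109508, plus strand), Mcm6 (chr1:128359706-128359885, minus strand), Mcm7 (chr5:138171884-138172063, minus strand, the second of its 2 windows by coordinate), Cdc6 (chr11:98907971-98908150, plus strand) and Mcm10 (chr2:5012792-5012971, minus strand) run from position -180 to -1. The shorter ones surround a form after the start in Mcm3 (chr1:20820276-20820303, minus strand and chr1:20820263-20820284, minus strand), in the same window of Mcm7 (chr5:138171850-138171877, minus strand) and in Cdt1 (chr8:122568037-122568064, plus strand).
Mcm5: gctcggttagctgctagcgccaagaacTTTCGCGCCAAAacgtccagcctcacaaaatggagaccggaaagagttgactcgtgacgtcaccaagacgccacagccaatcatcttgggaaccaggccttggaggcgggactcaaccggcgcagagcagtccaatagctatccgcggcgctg
Mcm6: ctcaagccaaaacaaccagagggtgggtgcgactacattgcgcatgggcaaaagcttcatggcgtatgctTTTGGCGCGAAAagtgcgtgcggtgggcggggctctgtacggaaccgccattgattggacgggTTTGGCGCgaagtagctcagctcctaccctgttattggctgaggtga
Mcm7: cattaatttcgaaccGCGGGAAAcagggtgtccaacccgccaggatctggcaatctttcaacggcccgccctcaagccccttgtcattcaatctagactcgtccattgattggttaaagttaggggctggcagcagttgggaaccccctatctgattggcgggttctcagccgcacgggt
Cdc6: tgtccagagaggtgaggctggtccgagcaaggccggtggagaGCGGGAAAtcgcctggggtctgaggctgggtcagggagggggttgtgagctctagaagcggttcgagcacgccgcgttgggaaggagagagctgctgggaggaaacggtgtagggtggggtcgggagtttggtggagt
Mcm10: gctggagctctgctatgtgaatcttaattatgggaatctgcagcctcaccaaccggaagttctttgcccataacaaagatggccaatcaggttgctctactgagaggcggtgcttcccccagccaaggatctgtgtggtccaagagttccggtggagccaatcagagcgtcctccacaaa
Mcm3, first site: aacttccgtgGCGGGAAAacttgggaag
Mcm3, second site: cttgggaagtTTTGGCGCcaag
Mcm7, site after the start: ggtgacgacgTTTCGCGCcaatttcggt
Cdt1: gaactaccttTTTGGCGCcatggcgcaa
In Mcm5 and Mcm6 the pair TTTGGCGC and TTTCGCGC lies on opposite strands and overlaps, from -153 to -142 in Mcm5 and from -110 to -99 in Mcm6. Mcm6 has a further TTTGGCGC from -47 to -40. The palindrome CACGTG, the E-box that MYC with its partner MAX can bind, is in 7.15% of all windows and in 0 of the 9 members' windows. ATTGG, the CCAAT box read on the other strand, is in 37.4% of all windows and in 7 of the 9 members, and TTTGAA, the core of the CHR element of late cell cycle genes, is in 17.9% of all windows and in 2 members, Mcm2 and Cdc45. For these 3 elements the members were counted by gene, with any window of a gene, and the shares of all by window. These matches describe letters and are not evidence of binding.

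The arrays lay on 3 slides of 4, each scanned together, so that a slide cannot be told from its scan. Slides 1 and 3 held no MycF/F control array. Spots marked as outliers made up 5.47% to 8.35% of the arrays of slide 1, against 0.904% to 1.84% on slides 2 and 3. Of the 11 member probes 1, the dimmer probe of Cdc6, was not well above background on enough arrays to be kept, and each other member has a single probe whose place on the gene was not determined. In the Cy5 channel 8 members were well above background on all 12 arrays, Cdc45 on 11 and Cdc6 on 6. Cdc6 was not well above background on any MycF/F,ERT2-Cre Wy-14643 array. Mcm6 has no value on 3 arrays of slide 1 because its spot was an outlier there. Of the 3 Myc probes 2 were lower in MycF/F,ERT2-Cre than in MycF/F on Wy-14643 (differences of -1.85 and -1.82, limma adjusted p = 0.00386 and 0.0056), while the other, lower on every array with a value, differed by -0.57 (adjusted p = 0.27). Probes outside the deleted part check nothing about the deletion, and their places were not determined. Of the drug check list of PPARA targets, 15 of 15 genes were called higher in MycF/F,ERT2-Cre (median 2.87) and 12 of 14 in MycF/F (median 2.98). In both genotypes 0 were below 0.

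On Wy-14643, transcripts of the replicative helicase were lower in MycF/F,ERT2-Cre than in MycF/F livers on every array for 9 of the 10 members, with a median difference of -1.08 on the log2 scale over all 10. All 10 fitted differences were below 0, against 43.3% of genes. The same pattern, every MycF/F,ERT2-Cre array below every MycF/F array, was met by 6.44% of 25171 genes, and for Cdc6 it rests on signals near background. With limma across all genes, however, 0 of the 10 members passed an adjusted p under 0.05, against 26 genes in all (0.103%; 0.0834% as lower). At an unadjusted p under 0.05, 9 members were lower, against 4.57% of genes. The comparison asks how MycF/F,ERT2-Cre liver differs from MycF/F liver when both received the PPARA agonist.

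Among the 6 ring subunits, Mcm5 differed most. Mcm5 read 1.22, 0.77 and 0.53 in MycF/F on slides 1, 2 and 3, and -2.02, -0.28, -0.80 and -0.11 in MycF/F,ERT2-Cre replicates 1 to 4, of which replicate 1 lay on slide 1, replicate 2 on slide 2 and the others on slide 3. Its slide 1 arrays are the extremes of both groups, and the groups stay apart without them. The difference was -1.64 (SE 0.40, 3.12-fold lower, limma adjusted p = 0.173).

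Mcm4, which with Mcm6 and Mcm7 forms the core of the ring that unwinds DNA, read 1.09, 0.21 and 0.16 in MycF/F and -1.37, -0.40, -0.82 and -0.47 in MycF/F,ERT2-Cre. All 4 MycF/F,ERT2-Cre arrays were below the reference and all 3 MycF/F arrays above it, a difference of -1.25 (SE 0.302, adjusted p = 0.17). Mcm7 read 0.87, 0.42 and 0.11 in MycF/F and -1.46, -0.35, -0.51 and -0.42 in MycF/F,ERT2-Cre, again with no overlap (-1.15, SE 0.281, adjusted p = 0.173). The replicate 1 value of Mcm7, on slide 1, stood far from the other 3. Mcm6 had 2 MycF/F values, 0.25 and 0.08 on slides 2 and 3, against -1.64, -0.61, -0.97 and -0.49, and differed by -1.09 (SE 0.272, adjusted p = 0.206). With its outlier spot kept, the missing MycF/F value on slide 1 was 1.26.

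Mcm3 read 1.27, 0.28 and 0.16 in MycF/F and -0.48, -0.50, -0.96 and -0.54 in MycF/F,ERT2-Cre. Here the slide 1 array was high in MycF/F but not low in MycF/F,ERT2-Cre, and the difference of -1.19 had the widest SE of the 10 (0.43, adjusted p = 0.398). Mcm2, whose protein takes part in passing histones at the fork, read 0.66, 0.39 and 0.21 against -1.26, -0.12, -0.40 and -0.03. The gap between its highest MycF/F,ERT2-Cre value and its lowest MycF/F value was narrow, and the difference was -0.87 (SE 0.264, adjusted p = 0.264).

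The loader Cdt1, which geminin holds in check, read 1.30, 0.06 and -0.03 in MycF/F and -0.80, -0.49, -0.77 and -0.41 in MycF/F,ERT2-Cre (-1.06, SE 0.30, adjusted p = 0.228). The other loader, Cdc6, was well above background on 2 of 3 MycF/F arrays and on 0 of 4 MycF/F,ERT2-Cre arrays, so its level there has only a bound. In Cy5 signal, quantile normalized between arrays, the MycF/F mean was 6.53 on the log2 scale, 1.35-fold above a floor of 6.10. The floor was made from the lowest signal well above background on each MycF/F,ERT2-Cre array or the probe's own if higher. The probe itself read 6.08. Because only 2 of 3 MycF/F arrays were well above background, 1.35-fold is not a least difference. That value holds for this scale alone and is open to dye bias: the log2 ratios of Cdc6, near background, differed by -0.41 or 1.33-fold (adjusted p = 0.416), and by -0.14 without slide 1. Cdc45, the helicase cofactor, read 0.88, 0.15 and 0.10 in MycF/F and -0.92, -0.38, -0.35 and -0.44 in MycF/F,ERT2-Cre. It had the lowest adjusted p of the members (-0.90, SE 0.194, adjusted p = 0.122). Mcm10 was the exception to the pattern, with -0.59, -0.95 and -1.15 against -1.61, -1.04, -0.85 and -1.27, groups that overlap (-0.29, SE 0.176, adjusted p = 0.772).

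**Figure D1:**
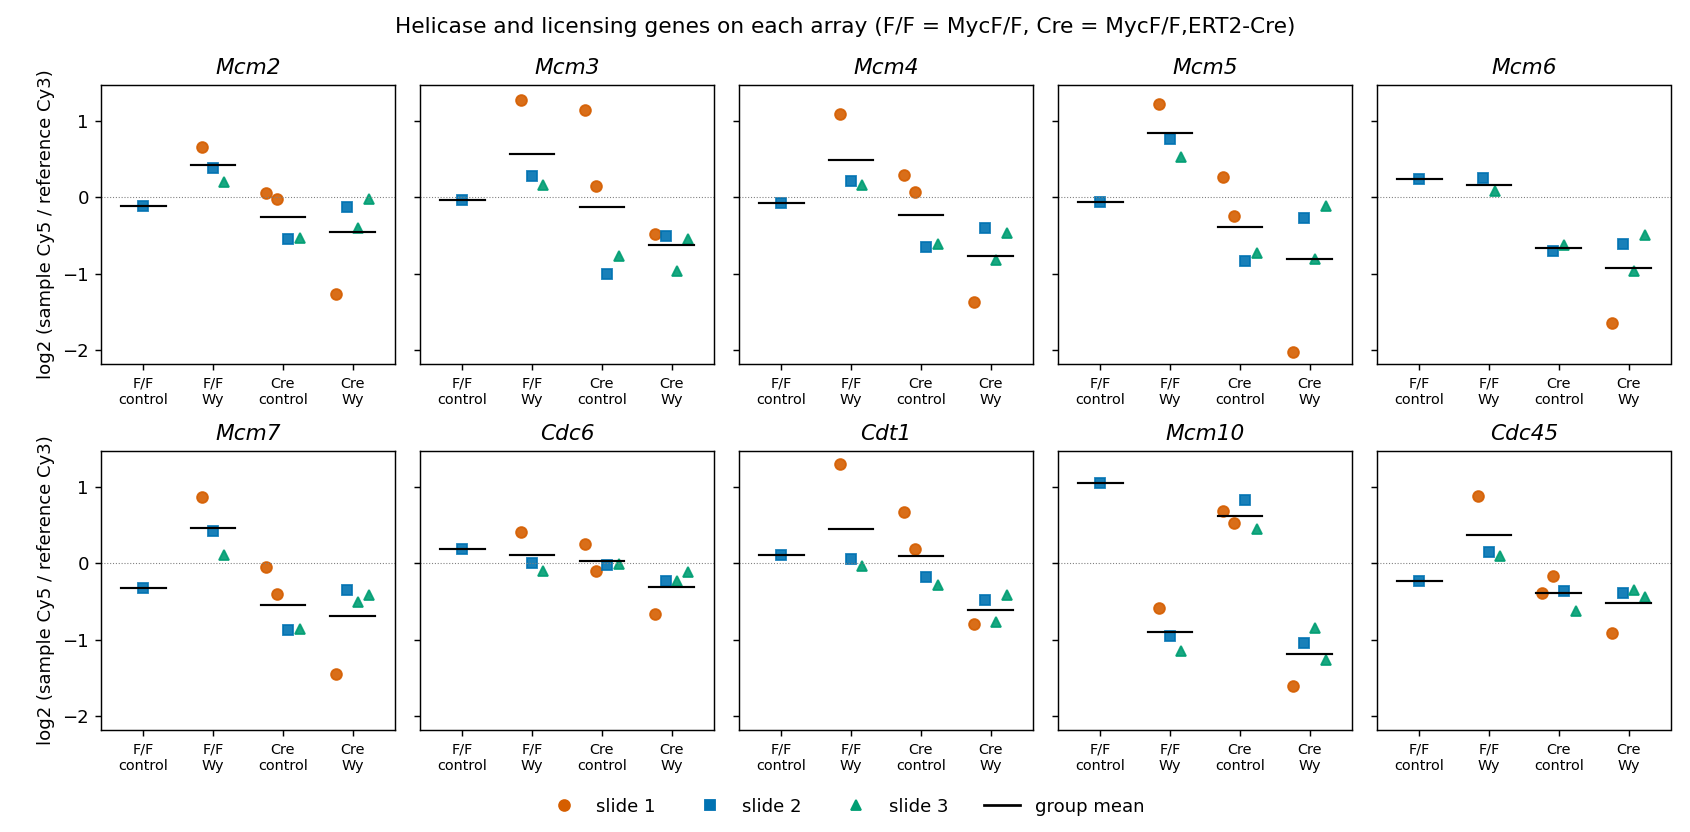
Log2 ratio of sample to reference (vertical axis) for each of the 10 members in the 4 groups (horizontal axis; F/F is MycF/F, Cre is MycF/F,ERT2-Cre), 1 point per array with its slide as colour and shape and the group mean as a bar. On Wy-14643 the Cre points lie below the F/F points in every panel but Mcm10, whose points part by diet instead, from 0.45 to 1.06 on control diet and from -1.61 to -0.59 on Wy-14643.

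The genotype difference on Wy-14643 had 1 direction on all slides for the 9 members other than Mcm10, and its size was larger on slide 1 than on the others. Within slide 1 (1 array against 1) the median over the 8 of them with a value was -2.01. Within slide 2 (1 against 1) it was -0.61 over 9 members, and within slide 3 (2 against 1) it was -0.58. All of these members were below 0 on each slide, while the median of all genes was 0.02 on each. Mcm5, for instance, differed by -3.24, -1.04 and -0.99 on slides 1, 2 and 3, and Cdc45 by -1.80, -0.53 and -0.49. Mcm10 differed by -1.02, -0.09 and 0.09.

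Without the 4 arrays of slide 1, the differences were smaller and so was their error, and 5 of the ring subunits passed the limma test on the other 8 arrays. They were Mcm3 (-0.89, SE 0.144, adjusted p = 0.0414), Mcm4 (-0.75, SE 0.125, adjusted p = 0.0465), Mcm5 (-1.04, SE 0.178, adjusted p = 0.0486), Mcm6 (-0.85, SE 0.136, adjusted p = 0.0385) and Mcm7 (-0.69, SE 0.108, adjusted p = 0.0363). In that fit 76 of 25125 genes were called lower, 0.302%. Mcm2 (-0.48, adjusted p = 0.143), Cdc45 (-0.51, adjusted p = 0.0702) and Cdt1 (-0.57, adjusted p = 0.0796) did not pass. Mcm10 then differed by -0.00 (SE 0.149). These calls rest on 3 arrays against 2 and lie close to the threshold. With slide as a block over all 12 arrays all 10 members were below 0 and 0 passed, with adjusted p from 0.13 to 0.671.

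**Figure D2:**
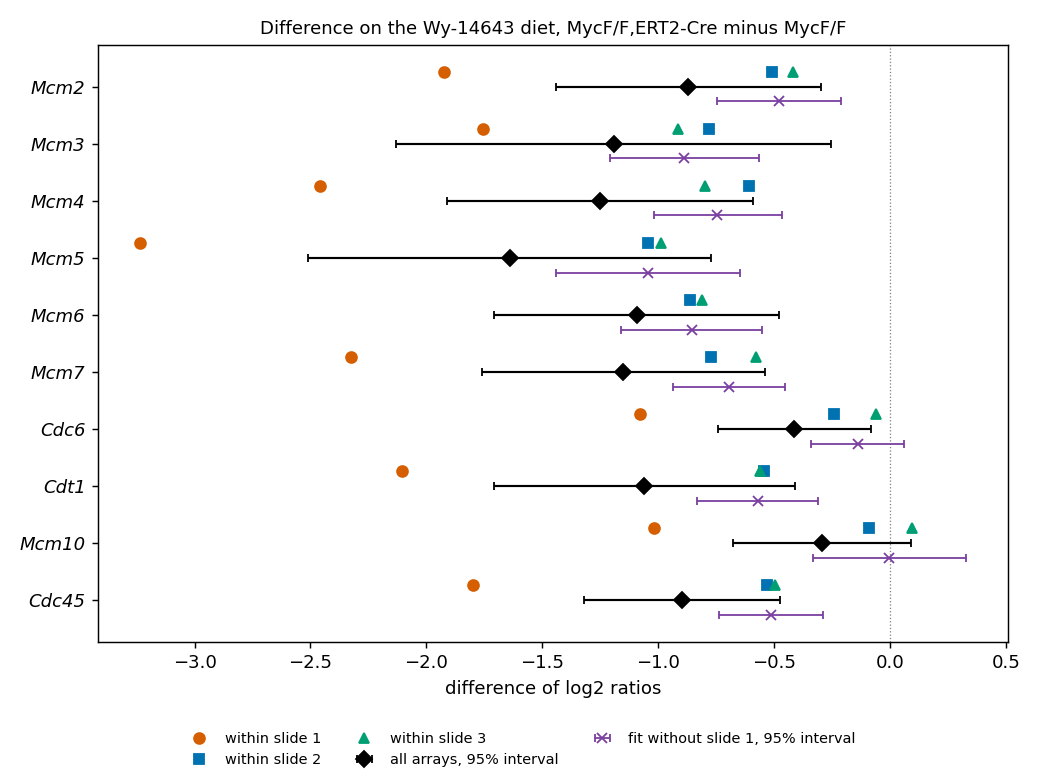
Difference between genotypes on Wy-14643, MycF/F,ERT2-Cre minus MycF/F, on the log2 scale (horizontal axis) for each member (vertical axis): the fit to all arrays with its 95% interval (diamonds), the differences within each slide (coloured points, no test) and the fit without slide 1 (crosses, 95% interval). The slide 1 points lie farthest left for all 9 members with a value, and those of slides 2 and 3 lie close together, such as -1.04 and -0.99 for Mcm5.

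Wy-14643 itself lowered Mcm10 in both genotypes, and no other member passed the test in either. In MycF/F,ERT2-Cre, Mcm10 read 0.69, 0.53, 0.83 and 0.45 on control diet and -1.61, -1.04, -0.85 and -1.27 on Wy-14643. The gap between the groups was wider than the range within either. The difference was -1.82 (SE 0.163, 3.52-fold lower, limma adjusted p = 1.18e-05), and it was -2.21, -1.87 and -1.52 within slides 1, 2 and 3. In this comparison 16.4% of 25163 genes were called, 7.26% as lower. In MycF/F, Mcm10 read 1.06 on the lone control array and -0.59, -0.95 and -1.15 on Wy-14643, a difference of -1.96 (SE 0.267, 3.88-fold lower, adjusted p = 0.000833), where 6.51% of 24916 genes were called, 3.25% as lower. MycF/F control is 1 array, so every test against it borrows the spread of the other groups. On control diet the single probe of Mcm10 had the highest mean Cy5 signal of the members. It was 10.84 on the log2 scale in MycF/F and 10.21 in MycF/F,ERT2-Cre. Mcm6 came next, at 9.52 and 8.76. Whether the Mcm10 probe reads that transcript alone was not tested.

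The other 9 members were all below 0 for Wy-14643 in MycF/F,ERT2-Cre, from -0.13 (Cdc45) to -0.72 (Cdt1), where 43.4% of all genes were below 0. None passed, with adjusted p from 0.109 to 0.79, and 3 members (Cdc6, Cdt1 and Mcm10) were lower on every Wy-14643 array than on every control array, against 9.9% of genes. Cdt1 read 0.68, 0.19, -0.18 and -0.29 on control diet and -0.80, -0.49, -0.77 and -0.41 on Wy-14643 (SE 0.278, adjusted p = 0.109). For Cdc6 the log2 ratios, near background, differed by -0.34 or 1.27-fold (adjusted p = 0.13), and by -0.18 without slide 1, while the normalized Cy5 signal was at least 1.29-fold above the floor. The slides did not share this direction. Within slide 1, 8 of 8 members other than Mcm10 were below 0, with a median of -1.23, while within slide 2 the median was 0.26 (6 of 9 above 0) and within slide 3 it was 0.02 (5 of 9 above 0).

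Mcm7 turned with the slide. On control diet Mcm7 read -0.05 and -0.41 on slide 1, -0.88 on slide 2 and -0.86 on slide 3, and on Wy-14643 it read -1.46 on slide 1, -0.35 on slide 2 and -0.51 and -0.42 on slide 3. Over all arrays Wy-14643 shifted Mcm7 by -0.14 in MycF/F,ERT2-Cre (SE 0.261, adjusted p = 0.79). Without slide 1 it shifted by 0.44 and passed (SE 0.108, adjusted p = 0.0184), in a fit where 10.2% of genes were called higher. Mcm5 read 0.27 and -0.24 on slide 1, then -0.84 and -0.73, on control diet, and -2.02 on slide 1, then -0.28, -0.80 and -0.11, on Wy-14643. Outside slide 1 its groups overlap, unlike those of Mcm7, and its difference of 0.38 without slide 1 did not pass (SE 0.178, adjusted p = 0.187). Both slide 1 control arrays of this genotype were above the other 2 for Mcm2, Mcm3, Mcm4, Mcm5, Mcm7 and Cdt1, while for Cdc6, Cdc45 and Mcm10 the values of the slides overlapped.

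In MycF/F 3 of 10 members were below 0, against 50.8% of genes, with no call besides Mcm10. Mcm2, Mcm3, Mcm4, Mcm5, Mcm7 and Cdc45 were higher on all 3 Wy-14643 arrays than on the control array, a pattern met by 30.1% of genes. Mcm5 was at -0.07 on the control array and differed by 0.90 (SE 0.605, adjusted p = 0.543), and Mcm7 was at -0.33 and differed by 0.79 (SE 0.426, adjusted p = 0.393). Cdc45, at -0.23 on the control array, came nearest to the threshold (0.60, SE 0.294, adjusted p = 0.325). Within slide 2, which alone held both MycF/F groups, 7 of 9 members other than Mcm10 were above 0 with a median of 0.32. Without slide 1 Mcm7 passed here too (0.59, SE 0.145, adjusted p = 0.0266; 5.75% of genes called higher).

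**Figure D3:**
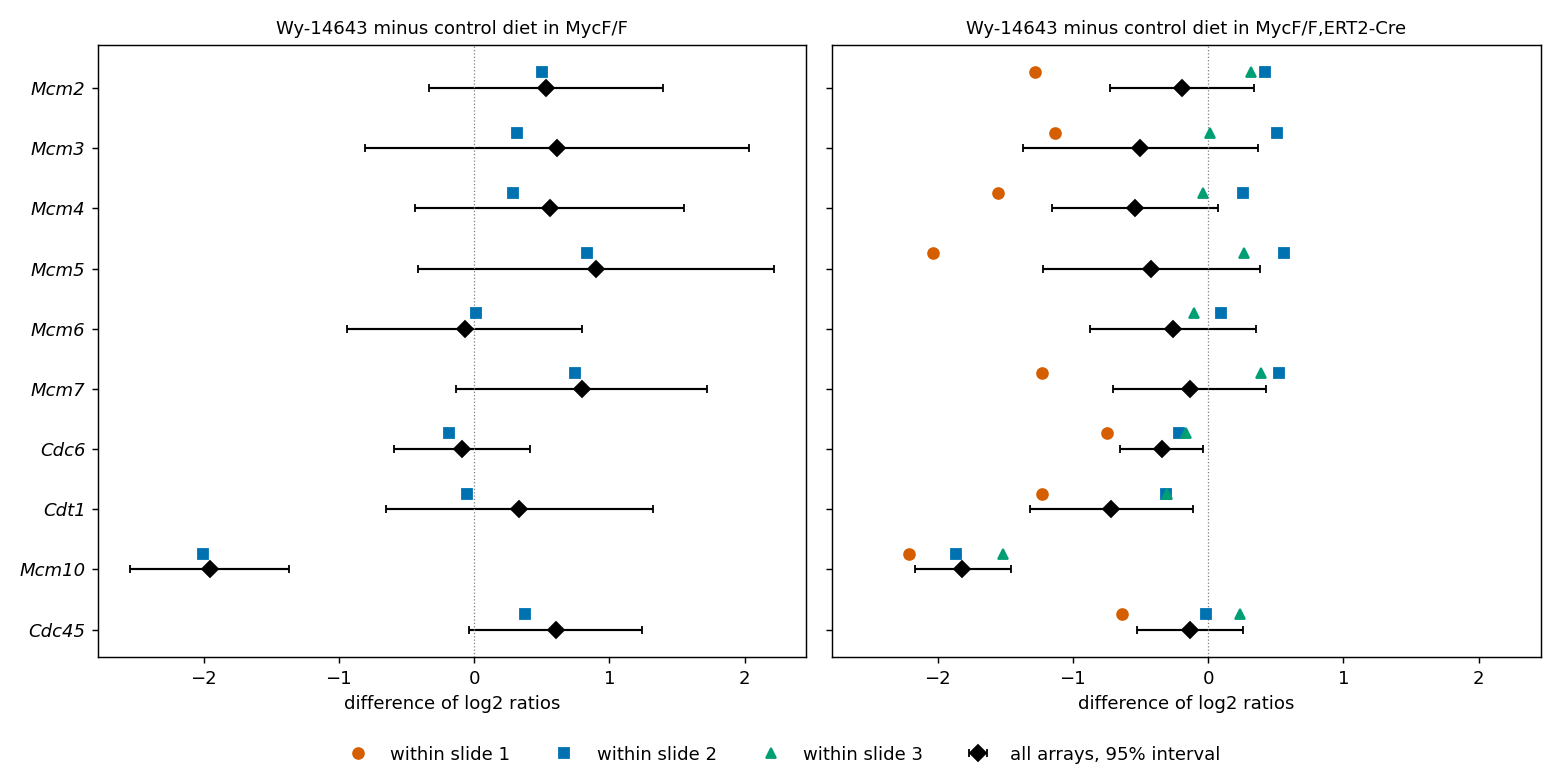
Difference of Wy-14643 from control diet on the log2 scale (horizontal axis) for each member (vertical axis) in MycF/F (left) and MycF/F,ERT2-Cre (right), with the fit to all arrays and its 95% interval (diamonds) and the differences within slides (coloured points, no test). Within slides Mcm10 lies between -2.21 and -1.52 in both panels, while the 5 ring subunits with a slide 1 value in MycF/F,ERT2-Cre lie left of 0 there and right of it on slide 2.

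On control diet the fitted difference of MycF/F,ERT2-Cre from the lone MycF/F array was below 0 for all 10 members, against 56.5% of genes, with a median of -0.16. With limma 0 of them passed, as did 0% of 24901 genes, and 1 member, Mcm6, had an unadjusted p under 0.05, against 1.8% of genes. Mcm6 read 0.23 in MycF/F and -0.71 and -0.63 in the 2 MycF/F,ERT2-Cre arrays that have a value. Within slide 2, where 1 array of each group lay side by side, the genotypes differed on control diet by a median of -0.49 over 10 members, all below 0, and on Wy-14643 by -0.58, all below 0. There Mcm3 differed by -0.97 on control diet and by -0.78 on Wy-14643, Mcm5 by -0.77 and -1.04, and Mcm7 by -0.55 and -0.77. The interaction, the drug effect in MycF/F,ERT2-Cre minus that in MycF/F, was below 0 for 9 members, against 41% of genes, with 0 called of the 10 and 0% of 24877 genes called (limma; 0 members and 2.17% of genes at an unadjusted p under 0.05). Mcm5 had an interaction of -1.32 (SE 0.709, adjusted p = 1), which was -0.33 (SE 0.298) without slide 1. The members' median interaction was -0.83 over all arrays and -0.11 without slide 1, where 7 of 10 were below 0, and 8 were below 0 with slide as a block.

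The ring subunits rose and fell together from array to array, and Mcm10 had a lower correlation with them over all arrays than once groups and slides were taken out. Over the 12 arrays, the 10 pairs among Mcm2, Mcm3, Mcm4, Mcm5 and Mcm7 had a Pearson r from 0.699 to 0.988 with a median of 0.934, and Cdc6, Cdt1 and Cdc45 had a median r of 0.79 with them. Mcm10 had r from -0.05 to 0.57 with the other 8 complete members, with a median of 0.08. With group and slide means removed its r ran from 0.337 to 0.87 with a median of 0.672, and that of the ring subunits from 0.794 to 0.986 with a median of 0.969. These arrays share groups and slides, so the r is a description. The 8 genes of 11635 most like the mean of the 9 complete members over the 12 arrays were Pcna, the sliding clamp of the polymerases (r = 0.972), Uhrf1, which keeps DNA methylation after replication (0.971), Dnajc9 (0.97), E2f1 (0.968), Ttf2 (0.964), Pole, the leading-strand polymerase (0.963), Dscc1, part of a clamp loader (0.962), and the condensin subunit Ncapg2 (0.957). With group and slide means removed r stayed between 0.942 and 0.986 for these 8. Of these 8 genes 7 were lower in all MycF/F,ERT2-Cre arrays than in all MycF/F arrays on Wy-14643, Ncapg2 being the exception, and 0 passed limma at an adjusted p under 0.05 (8 at an unadjusted one). They were chosen for likeness over these same arrays, so this count is a description.

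The spread of slide 1 did not appear in every gene group. The mean of the members other than Mcm10 was 0.96 on the slide 1 array of MycF/F on Wy-14643, against 0.28 and 0.13 on the others. It was -1.18 on the slide 1 Wy-14643 array of MycF/F,ERT2-Cre, against -0.37, -0.64 and -0.34. The mean of the PPARA targets ran from 0.49 to 0.65 in the first group and from 0.70 to 0.84 in the second, where the slide 1 arrays were at 0.49 and 0.73. For the genotype difference on Wy-14643 the S phase and mitosis markers moved with the members. Their median was -1.20 within slide 1, -0.20 within slide 2 and -0.35 within slide 3. By diet they did so within slide 1 alone. In MycF/F,ERT2-Cre the markers' median was -1.21, -0.32 and -0.23 within slides 1, 2 and 3. For the members other than Mcm10 it was -1.23, 0.26 and 0.02. In MycF/F, within slide 2, the markers' median was -0.44, against 0.32 for these members. Between the diets in MycF/F,ERT2-Cre the median PPARA target differed by 2.79, 2.82 and 2.84 within slides 1, 2 and 3.

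**Figure D4:**
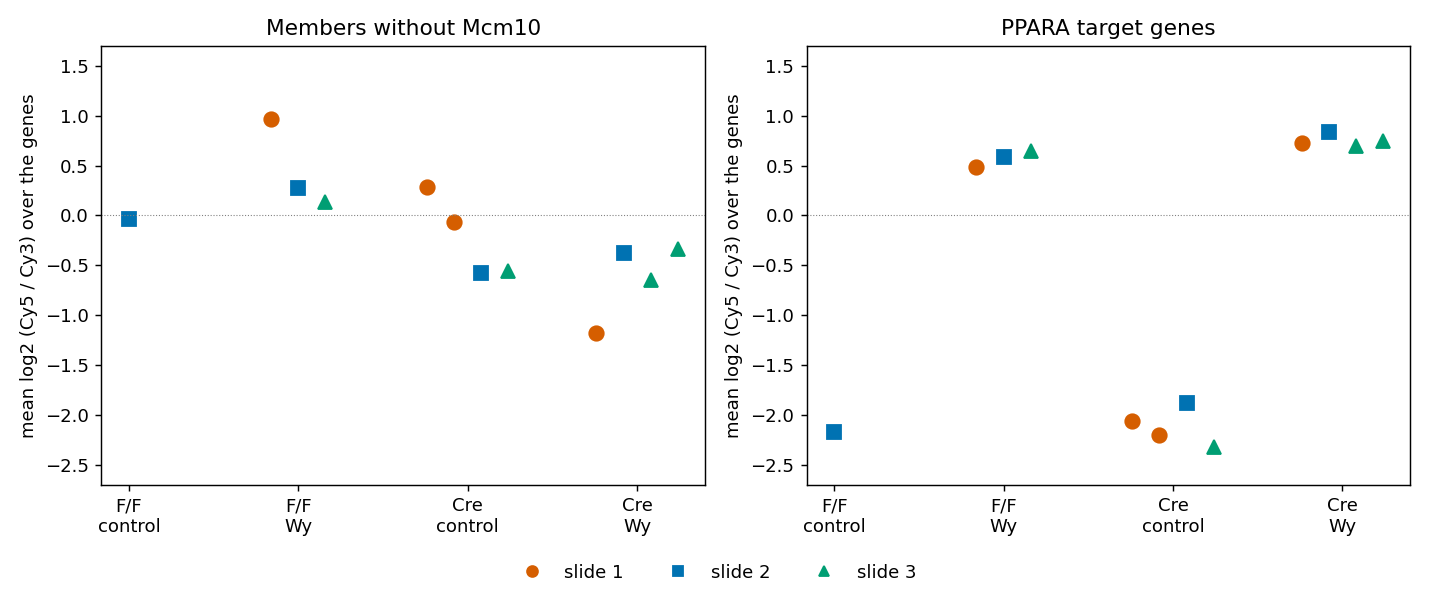
Mean log2 ratio over the genes with a value (vertical axis) on each array, by group (horizontal axis; F/F is MycF/F, Cre is MycF/F,ERT2-Cre) and slide (colour and shape), for the 9 members other than Mcm10 (left) and the PPARA targets (right). On Wy-14643 the member means on slide 1 are 0.96 and -1.18, the outermost of their groups, while the PPARA means lie between 0.49 and 0.84 on all 7 arrays.

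Other genes of the licensing pathway were read from lists. On Wy-14643 the genotypes differed with 0 calls in each of the lists, against 0.103% of all genes. Of all genes 43.3% were below 0, and 6.44% were lower on every MycF/F,ERT2-Cre array than on every MycF/F array. The genes named here were chosen after their values were seen. In the origin recognition complex, the platform on which the ring is loaded, 4 of 5 genes were below 0 (median -0.12), and only Orc6 was lower on every array (-0.58, adjusted p = 0.228). Of 14 genes of GINS and origin firing 14 were below 0 (median -0.27) and 7 lower on every array, among them the cyclin genes Ccne1 (-0.89, adjusted p = 0.183) and Ccna2 (-0.59, adjusted p = 0.34). Of 12 genes of licensing control and turnover 10 were below 0 (median -0.19) and 5 lower on every array, including Gmnn, which encodes geminin (-0.64, adjusted p = 0.285), and the MCM-like helicase gene Mcm8 (-0.82, adjusted p = 0.136). The E2F and RB families were split, with 6 of 14 below 0 (median 0.01). Of these 14 genes 5 were lower on every array and 1 was higher on every array, as were 7.29% of all genes. E2f1 was at -0.72 (adjusted p = 0.237) and Rb1 at 0.01. All 13 S phase and mitosis markers were below 0 (median -0.38) and 6 were lower on every array. Pcna was at -0.88 and Rrm1, of ribonucleotide reductase, at -1.05 (adjusted p = 0.203 and 0.209).

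**Figure D5:**
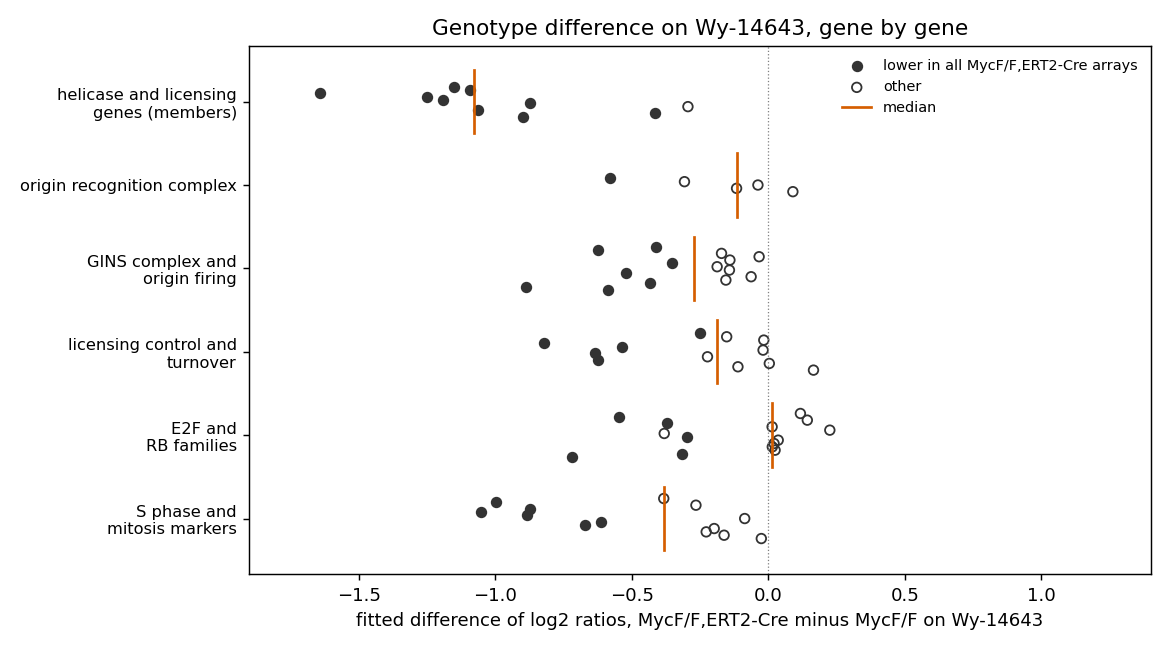
Fitted genotype difference on Wy-14643, MycF/F,ERT2-Cre minus MycF/F (horizontal axis, log2 scale), for each gene of the members and of 5 related lists (rows), filled where every MycF/F,ERT2-Cre array was below every MycF/F array, with the median of each row as a bar. The members' median lies at -1.08 and those of the lists between -0.38 and 0.01.

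In MycF/F,ERT2-Cre 14 of the 58 pathway genes measured were called for the drug, 5 of them higher (8.62%, against 9.09% of all genes) and 9 lower (15.5%, against 7.26%). In MycF/F 2 of 58 were called, both higher (3.45%, against 3.26%). The GINS subunit gene Gins4 rose in both genotypes, by 1.16 in MycF/F,ERT2-Cre (SE 0.103, adjusted p = 1.92e-05, n = 4 and 3) and by 1.32 in MycF/F (SE 0.156, adjusted p = 0.000458), as did Orc3, by 0.70 (adjusted p = 0.000918) and 0.79 (adjusted p = 0.0208). The call of Orc3 in MycF/F was lost without MycF/F Wy-14643 replicate 2 or 3, without slide 3, with median centring and with Cy5 alone, 5 of 26 alternatives (adjusted p up to 0.966). In MycF/F,ERT2-Cre the repressor genes E2f6 (0.63, adjusted p = 0.00124) and E2f8 (0.56, adjusted p = 0.00428) rose, while E2f2 (-0.60, adjusted p = 0.00251) and the mitotic ubiquitin-conjugating enzyme gene Ube2c (-0.80, adjusted p = 0.00399) fell. Each of these calls was lost in 1 to 3 of the alternatives, by Cy5 alone (E2f2, E2f6 and E2f8), median centring (E2f6 and E2f8) or leaving out slide 3 (E2f6, E2f8 and Ube2c). Gins4 lost its call with Cy5 alone in both genotypes and, in MycF/F, with median centring, and Orc3 lost its call in MycF/F,ERT2-Cre under the same pair of settings. The counts in MycF/F,ERT2-Cre were 1 higher of 5 origin recognition genes, 1 higher and 2 lower of 14 GINS and firing genes, 1 higher and 2 lower of 12 licensing control genes, 2 higher and 1 lower of 14 E2F and RB genes and 4 lower of 13 S phase and mitosis markers. In MycF/F they were 1 higher origin recognition gene (Orc3), 1 higher GINS gene (Gins4) and 0 in the other 3 lists. Mcm10, at -1.82 and -1.96, fell where Gins4, whose product joins the same helicase step, rose.

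Markers of other liver cells were set beside the genotype difference on Wy-14643. The mean of 10 Kupffer cell markers ran from -0.70 to -0.38 in MycF/F and from -0.38 to -0.14 in MycF/F,ERT2-Cre. Of these markers 0 of 10 were called, and 5 were higher on every MycF/F,ERT2-Cre array (7.29% of genes were). Their median difference was 0.39, and 0 of 10 were below 0, against 43.3% of genes. Within slides 1, 2 and 3 it was 0.35, 0.38 and 0.39 over the markers with a value. For 7 endothelial markers the mean ran from -0.41 to -0.18 and from -0.20 to -0.07, with 0 called and a median of 0.22. Of these 7 markers 2 were below 0 and 3 were higher on every MycF/F,ERT2-Cre array. Within slides 1, 2 and 3 their median was 0.30, 0.35 and 0.02. The means of both lists overlapped between the genotypes, those of the Kupffer markers only between -0.381 and -0.375. The means of 7 lymphocyte markers (-0.18 to 0.08 and -0.18 to -0.10), 6 stellate cell markers (-0.40 to -0.00 and -0.42 to -0.09) and 7 hepatocyte markers (-0.21 to -0.12 and -0.26 to 0.15) overlapped between the genotypes, as did those of neutrophil, bile duct and erythroid markers. By diet in MycF/F,ERT2-Cre, beside the fall of Mcm10, 6 of 10 Kupffer markers were called lower (median -0.62), against 7.26% of all genes. So were 4 of 7 hepatocyte markers (median -0.81), 3 of 6 stellate cell markers (median -0.39) and 2 of 7 endothelial markers (median -0.29). Of lymphocyte markers 2 of 7 were called lower (median -0.22), of erythroid markers 2 of 5 (median -0.47) and of bile duct markers 1 of 5 (median -0.24). Called or not, 10 of 10 Kupffer, 7 of 7 endothelial, 6 of 7 hepatocyte and 6 of 7 lymphocyte markers were below 0, against 43.4% of all genes. So were 5 of 5 erythroid, 4 of 6 stellate cell and 4 of 5 bile duct markers. Another bile duct marker was called higher (0.55), as were 9.09% of all genes. Of 3 neutrophil markers 0 were called (median -0.54). The part of any of these cells in the members' values was not tested.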

How the data were processed

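The members and lists were chosen with earlier results of these data known. RNA of whole liver was amplified to antisense RNA and labelled with Cy5, with a pooled liver reference in Cy3 on all 12 arrays, per the labels' protocols; dyes were not swapped, and a dye effect cancels between groups. Per the file headers, the scanner output was made by Agilent Feature Extraction 11.0.1.1, and its deposited intensity columns for each spot and its local background were the start here. The deposited log10 ratio column, background-corrected and dye-normalized per the file headers, served as an alternative.

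Median signals were corrected with normexp (offset 50) and loess-normalized within each array with limma 3.58.1 in R 4.3.3. Outlier spots were left out, spots of a probe averaged, and probes kept if well above background in Cy5 on at least 3 arrays (31861 of 41174 probes). Median Cy5 signal over background was 2.64 to 4.82 per array; the number of arrays limits the precision. The brightest kept probe stood for a gene, and 16792 of 17440 RefSeq mRNA accessions received a symbol through a GRCm38.p6 table. The array design names another build, so no probe was placed.

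A mean per group was fitted with limma (lmFit, eBayes; 8 residual degrees of freedom). Tests were two-sided, with Benjamini-Hochberg adjustment over all genes and calls at an adjusted p under 0.05. Genes named by a rule are all members, Myc, up to 6 called genes of the pathway lists per comparison in order of adjusted p, and the 8 genes most like the members. The list genes named for the genotype difference were chosen after their values were seen, and the neighbours of Mcm10 after its values were seen. Alternatives changed background correction, normalization, values, filters, probe rule, blocks and arrays. Whether the numbers of the titles pair the samples is not known. Over 10 same-numbered pairs r ran from -0.07 to 0.41, with 7 over 0.1, and some of these pairs shared a slide. The main fit used no pairing. The fitting step was tested on simulated data. Promoter letters were searched with Python.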

Additional observations from a re-analysis of the deposited data

Results flagged for a closer look

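In groups of 4 arrays, 3 of 19 member groups had a sample far from the other 3 by Dixon's ratio, a test that by chance picks out about 1 group in 20. All 3 belong to the Wy-14643 group of MycF/F,ERT2-Cre. The 19 groups share arrays and the members vary together, so they are not independent and the chance rate is only a rough guide. Mcm7 was at -1.46 on replicate 1, against -0.51 to -0.35 on the other 3 arrays. Cdc45 was at -0.92 on the same array, against -0.44 to -0.35. Mcm3 was at -0.96 on replicate 3, on slide 3, where the other 3 lay between -0.54 and -0.48, and here replicate 1 was not the distant array.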

How the results depend on the processing

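With the replicate number as a block (replicate block), 1 member passed for Wy-14643 in MycF/F,ERT2-Cre and 1 in MycF/F (Mcm10 each time). In the other comparisons 0 passed, so this block changed no call of a member. Over all genes, the calls for genotype on Wy-14643 went from 5 higher and 21 lower to 0 and 0 with it. Without slide 1 the members called were 2 for Wy-14643 in MycF/F,ERT2-Cre, 2 in MycF/F and 5 for genotype on Wy-14643, against 1, 1 and 0 over all arrays, and Mcm7 turned to 0.44 for Wy-14643 in MycF/F,ERT2-Cre. The count for Wy-14643 in MycF/F,ERT2-Cre was also 2 with normexp offset 10 (Cdc6 added) and with only the 2 groups compared (Cdt1 added). Leaving out 1 array at a time gave 1 to 2 there, where 2 came from leaving out MycF/F Wy-14643 replicate 1 (Cdt1 added); in MycF/F it gave 1 and in the other comparisons 0. Mcm10 passed for the drug in both genotypes under every alternative run (29 fits from -2.01 to -1.68 in MycF/F,ERT2-Cre and 26 from -2.11 to -1.72 in MycF/F). The number of members lower on every array on Wy-14643 stayed at 9 under each change of values, filter and probe rule but the filter on all 12 arrays, where Cdc6 and Cdc45 drop out and 7 remained. The members' median for genotype on Wy-14643 ranged from -1.50 to -0.63, and for Wy-14643 in MycF/F,ERT2-Cre from -0.72 to 0.09. In all 29 alternative fits the genotype difference on Wy-14643 of Mcm5 was below 0 (-2.20 to -1.04), with adjusted p from 0.0486 to 1 by limma, and it passed only without slide 1, as did those of Mcm3, Mcm4, Mcm6 and Mcm7; the cause was not tested. Signal over background limits Cdc6 most.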

Other observations

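Among the 8 genes most like the members over the arrays, 6 have a promoter window in the RefSeq table, and 3 of them (Uhrf1, Dnajc9 and Ncapg2) hold 1 of the 4 E2F forms searched, against 2.6% of the 27025 genes with a window. The share was 5 of 12 in the E2F and RB families and 1 of 13 in the S phase and mitosis markers. Of the protein-coding genes next to Mcm10 on its chromosome, Optn was at 0.26 (limma adjusted p = 0.542) and Ccdc3 at 0.15 (adjusted p = 0.55) for Wy-14643 in MycF/F,ERT2-Cre, beside -1.82 for Mcm10. These 2 neighbours were chosen after the values of Mcm10 were seen.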
